A study of Rattus norvegicus with 3 samples.

Results

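The genes described here encode glutathione transferases and other detoxifying enzymes: aldo-keto and carbonyl reductases, epoxide hydrolases, UDP-glucuronosyltransferases, aldehyde dehydrogenases and cytochromes P450. They were taken by symbol, as genes with a probe set annotated with a single symbol that starts with Gsta, Gstk, Gstm, Gsto, Gstp, Gstt, Gstz, Mgst, Akr1, Akr7, Cbr, Ephx, Ugt1, Ugt2, Aldh1a, Aldh3 or Cyp1. The group was chosen with earlier results of these data known, so its shares beside those of all genes are descriptions only. The rule gave 65 genes of 14218 in all, measured by 75 probe sets, and 57 of the 65 had 1 probe set. No gene of the Ugt1 locus had a probe set of its own, and the Cyp1 prefix also took 4 steroid-producing cytochromes P450 (Cyp11a1, Cyp11b1, Cyp17a1 and Cyp19a1). Transcripts were measured in cardiomyocytes of fetal rats of the outbred Wistar strain. The cells were released by enzyme digestion, grown on plates over 48 hours and given 24 hours in fresh culture medium (control), in medium conditioned by skeletal myoblasts or in medium conditioned by cardiac fibroblasts. The sources used here do not give the fetal age, how many animals stand behind a culture or which other cells remained in it. Each medium was measured on 1 Affymetrix 3' expression array, so no difference has a replicate, an error or a p-value, and every value describes these 3 arrays.

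Detoxification runs in steps. Cytochromes P450 and the carbonyl-reducing and aldehyde-oxidising enzymes change a reactive group, epoxide hydrolases open epoxides with water, and transferases then attach glutathione or glucuronic acid so that the product can be exported. Many of these genes are known targets of the transcription factor Nrf2, which binds antioxidant response elements, or of the aryl hydrocarbon receptor, which binds xenobiotic response elements with its partner Arnt. In the heart, glutathione transferases and aldehyde-metabolising enzymes are known for clearing reactive aldehydes that form when lipids are oxidised. The study concerned protection of cardiomyocytes from oxidative stress by factors that myoblasts release.

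Akr1c15, Cyp1b1 and Akr1b8 had the largest differences above control and Gstt3 the largest below it, and the window around the start of each is shown because Nrf2 and the aryl hydrocarbon receptor are the regulators most often linked to these families. Windows run from 250 bases before to 50 bases after the start in RefSeq's annotation of assembly GRCr8, in the direction of the gene. Capitals mark TGACNNNGC, the core of the antioxidant response element, or GCGTG, the core of the xenobiotic response element, on either strand.
Akr1c15 (chr17:71117908-71118207, minus strand): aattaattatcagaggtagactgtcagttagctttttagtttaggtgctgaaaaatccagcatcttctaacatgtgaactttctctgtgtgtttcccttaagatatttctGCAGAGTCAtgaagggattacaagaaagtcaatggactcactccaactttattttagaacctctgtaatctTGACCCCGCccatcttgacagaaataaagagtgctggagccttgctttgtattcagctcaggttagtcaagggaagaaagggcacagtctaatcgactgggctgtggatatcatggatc
Akr1b8 (chr4:63964171-63964470, plus strand): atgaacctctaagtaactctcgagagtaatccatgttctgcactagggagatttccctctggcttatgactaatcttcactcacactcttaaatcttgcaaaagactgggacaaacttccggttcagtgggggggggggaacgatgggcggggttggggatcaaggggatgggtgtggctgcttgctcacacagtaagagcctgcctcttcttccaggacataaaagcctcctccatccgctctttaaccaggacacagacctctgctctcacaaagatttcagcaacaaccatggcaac
Cyp1b1 (chr6:21094315-21094614, plus strand): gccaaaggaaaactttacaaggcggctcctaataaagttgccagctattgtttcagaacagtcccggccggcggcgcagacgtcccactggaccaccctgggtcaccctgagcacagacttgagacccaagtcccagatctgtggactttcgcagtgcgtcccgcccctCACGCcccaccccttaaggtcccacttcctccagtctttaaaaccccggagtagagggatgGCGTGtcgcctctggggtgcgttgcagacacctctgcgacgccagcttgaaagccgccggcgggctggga
Gstt3 (chr20:12874368-12874667, plus strand): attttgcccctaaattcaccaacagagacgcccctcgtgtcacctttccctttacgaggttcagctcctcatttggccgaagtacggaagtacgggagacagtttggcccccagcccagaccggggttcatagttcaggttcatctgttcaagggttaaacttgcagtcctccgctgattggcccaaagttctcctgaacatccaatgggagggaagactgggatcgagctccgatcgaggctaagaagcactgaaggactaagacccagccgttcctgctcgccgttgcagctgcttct
The Akr1c15 window held 2 matches to TGACNNNGC, TGACCCCGC in the direction of the gene, beginning 69 bases before the start, and TGACTCTGC on the opposite strand, 140 bases before it. The Cyp1b1 window held 2 matches to GCGTG, at 20 bases before the start in the direction of the gene and at 81 bases before it on the opposite strand. The Akr1b8 and Gstt3 windows held neither set of letters, which says nothing of sites elsewhere. None of the marked matches overlapped another. Of 33469 windows in the table, 12.1% held TGACNNNGC and 29.7% held GCGTG. Windows were found for 50 of the 65 genes (54 windows), of which 9 genes held the first motif and 17 the second, or 16.7% and 33.3% of these windows. A match is a description of the letters and not evidence that a factor binds there.

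The deposited values are on the log2 scale, apparently with the median of the 3 arrays subtracted for each probe set. Blank cells were read as 0, the median array. A value of 1 on an array therefore means 2-fold above the median array. Centring alone would leave 1 blank per probe set unless arrays tied, so a 0 from further blanks is an assumption. Gstk1, Gstm6l, Akr1c1 and Cyp1a1, among others, had a value on 1 array only. Because the level itself was removed, it cannot be read which gene was abundant, whether a probe set was above background, or whether the cardiomyocyte label holds at the level of its markers. Of the 65 genes, 8 were listed at 0 on all arrays (12.3%, against 11.4% of all genes), namely Akr1b7, Akr1d1, Aldh3a1, Cyp1a2, Gsta3l1, Gstp3, Ugt2a1 and Ugt2b1. A gene at 0 may be absent or equal in the 3 cultures. Control transcripts that are normally added to every sample in equal amounts gave a measure of technical error. Over 42 of their probe sets the difference ran from -0.01 to 0.66 for myoblast medium minus control (median 0.29), from -0.68 to 0.59 for fibroblast medium minus control (median 0.09) and from -0.48 to 1.02 between the conditioned media (median 0.21). Probe sets of the control transcript Trpn were left out of these ranges. Whether equal amounts were added here is not known.

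In all, 10 of the 65 genes (15.4%, against 9.2% of all genes) were at least 2-fold apart in 1 or more comparisons. Akr1c15, Akr1b8, Cyp1b1, Ephx1 and Mgst2 were higher, and Gstt3, Gstt1, Gstm1, Gsta4 and Ephx2 lower, in at least 1 conditioned medium than in control. In myoblast medium, 3 genes were at least 2-fold higher than in control (4.62% of members, against 1.35% of all genes) and 1 was at least 2-fold lower (1.54%, against 0.844%). In fibroblast medium, 4 were at least 2-fold higher (6.15%, against 4.26%) and 5 at least 2-fold lower (7.69%, against 2.6%). Between the conditioned media, 2 were at least 2-fold higher in myoblast medium (3.08%, against 2.12%) and 1 at least 2-fold lower (1.54%, against 3.94%). At 1.5-fold, 6 of the 65 genes were higher and 3 lower in myoblast medium minus control (against 3.77% and 2.86% of all genes), 7 and 11 in fibroblast medium minus control (against 9.09% and 6.97%), and 9 and 2 in myoblast minus fibroblast medium (against 6.65% and 8.34%). At 3-fold, 2 were higher and 1 lower in myoblast medium minus control (against 0.38% and 0.148%), 2 and 2 in fibroblast medium minus control (against 1.84% and 0.992%), and 1 and 0 in myoblast minus fibroblast medium (against 0.591% and 1.79%). The median differences of the 65 genes were 0.00, -0.01 and 0.05 in these 3 comparisons, and the median of all genes was 0.00 in each. All 3 comparisons share arrays in pairs, so their counts are not independent of each other.

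**Figure D1:**
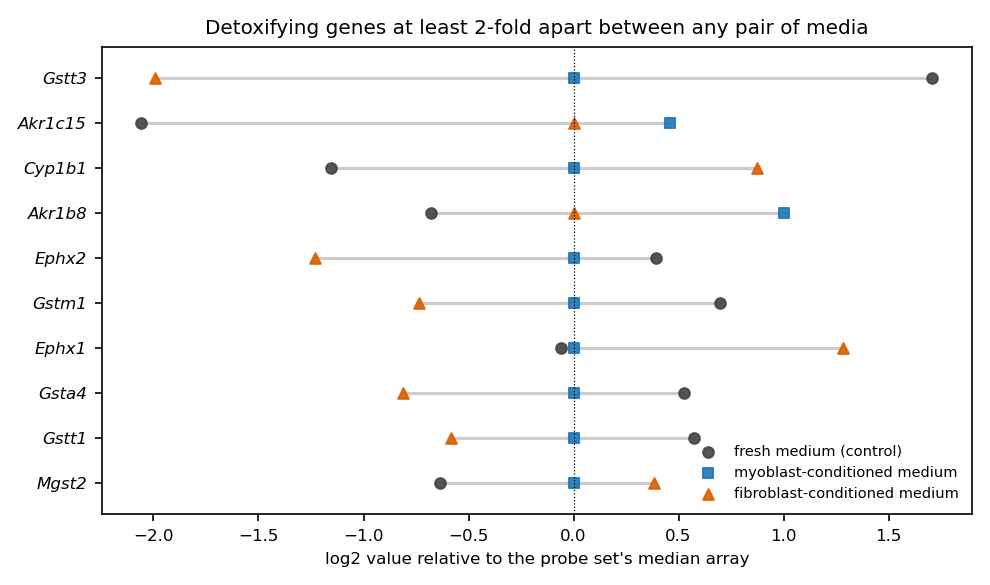
Values of the 10 detoxifying genes at least 2-fold apart between any pair of media, on the 3 arrays (1 array per medium, no error available). The x axis gives the log2 value relative to the probe set's median array, and a grey line joins the lowest to the highest array of a gene. Gstt3 spanned the widest range, from -1.99 in fibroblast medium to 1.71 in control, and control was the lowest array for Akr1c15, Cyp1b1, Akr1b8, Ephx1 and Mgst2.

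Among the cytosolic glutathione transferases, which conjugate glutathione to reactive compounds, Gstt3 of the theta class stood lowest under conditioned medium. Its centred log2 value was 1.71 in control, 0.00 in myoblast medium and -1.99 in fibroblast medium. The array of control was the highest and that of fibroblast medium the lowest, with myoblast medium between. The difference from control was -1.71 in myoblast medium (3.27-fold lower) and -3.70 in fibroblast medium (13.0-fold lower), and myoblast medium was 3.98-fold higher than fibroblast medium. Gstt1, a theta-class enzyme that also acts on small halogenated compounds, had the same order of arrays with values of 0.57, 0.00 and -0.58, which gave differences from control of -0.57 and -1.16 (1.49-fold and 2.23-fold lower). Gstt2 had a mean difference of -0.20 in myoblast medium and -0.18 in fibroblast medium, but its probe sets disagreed for fibroblast medium, at -0.76 and 0.41. The 3 theta-class genes are neighbours in the GRCr8 annotation.

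Gstm1, a mu-class transferase, had values of 0.70 in control, 0.00 in myoblast medium and -0.73 in fibroblast medium. Relative to control it was 1.62-fold lower in myoblast medium and 2.70-fold lower in fibroblast medium. Gsta4, an alpha-class enzyme known for conjugating the lipid peroxidation product hydroxynonenal, had values of 0.53, 0.00 and -0.81. It was 1.44-fold lower in myoblast medium and 2.52-fold lower in fibroblast medium. For both genes control was again highest and fibroblast medium lowest. The differences in myoblast medium were -0.70 for Gstm1 and -0.53 for Gsta4, where the control transcripts ran from -0.01 to 0.66 (median 0.29). In size, the largest of the control transcripts lay above the difference of Gsta4 and close to that of Gstm1.

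The other mu-class genes, except Gstm6l, followed the same order with smaller differences. In fibroblast medium minus control, Gstm4 was at -0.82, Gstm5 at -0.56, Gstm7 at -0.43, Gstm2 at -0.15 and Gstm3 at -0.05, while Gstm6l was at 0.00. In myoblast medium minus control they lay between -0.30 (Gstm4) and 0.12 (Gstm6l). The 7 mu-class genes stand together in 1 stretch of the GRCr8 annotation and are closely related in sequence, and whether their probe sets share signal was not tested. The order of control above myoblast medium above fibroblast medium was found in 6 of these 7 genes and in 12 of the 23 glutathione transferases of all kinds (52.2%), against 18 of the 65 detoxifying genes (27.7%) and 16.3% of all genes. Gstt3, Gstt1, Gstm1 and Gsta4, for which this order was described above, are among the 12, and the 12 are among the 18. These shares are therefore no test of the order. Differences of any size are counted, such as Gstm3 at 0.04, 0.00 and -0.01. The reverse order was found in 1 of the 23 (4.35%), against 13.5% of all genes.

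**Figure D2:**
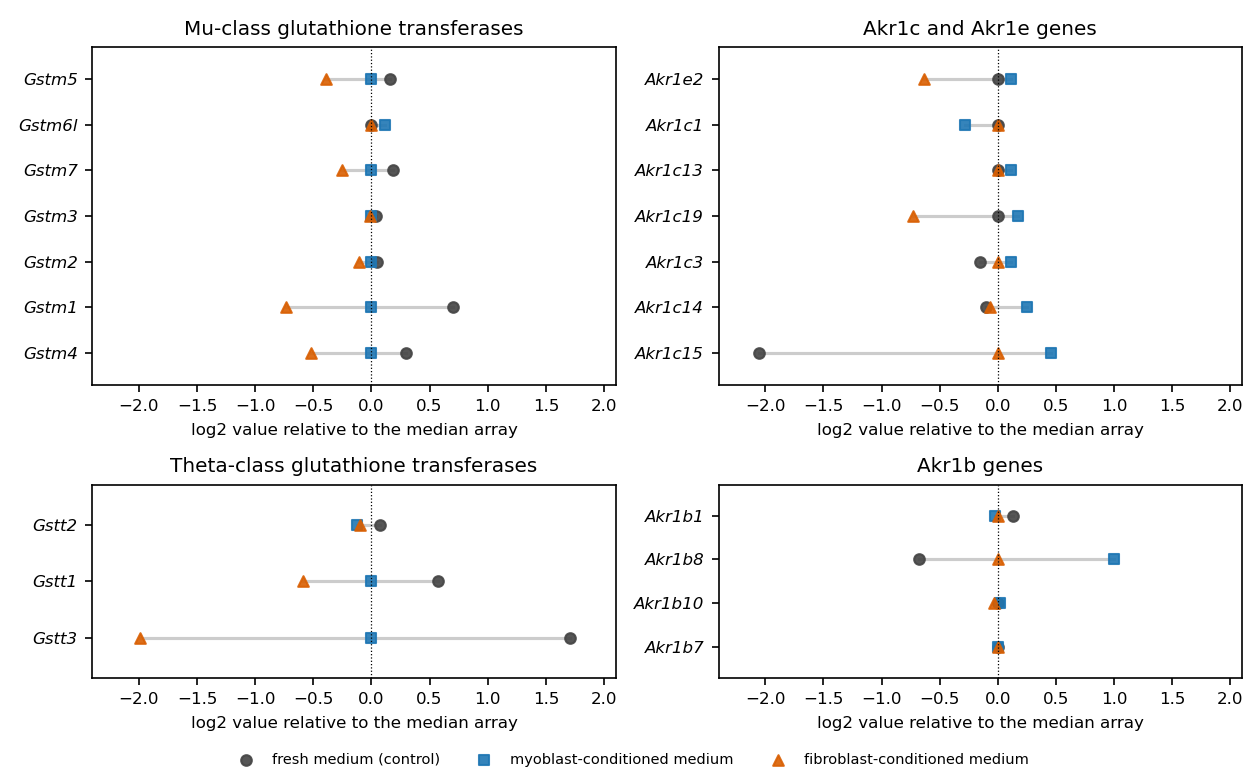
Centred log2 values on the 3 arrays for 4 groups of neighbouring genes, listed from top to bottom in their order along the chromosome in GRCr8 (spacing not to scale). Control (circles) lay above fibroblast medium (triangles) for 6 of 7 mu-class genes and for all 3 theta-class genes, while myoblast medium (squares) was the highest array for 5 of 6 Akr1c genes and for Akr1b8. These counts take differences of any size. Gstt2 is drawn as the mean of probe sets that disagreed in fibroblast medium minus control (-0.76 and 0.41).

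Not every cytosolic transferase was lower. Gsta1, another alpha-class enzyme, had values of -0.63 in control, 0.07 in myoblast medium and 0.00 in fibroblast medium, a difference from control of 0.70 and 0.63 (1.62-fold and 1.55-fold higher). Gsto1, an omega-class enzyme that reduces dehydroascorbate, was higher by 0.54 and 0.36, whereas Gsto2 was higher by 0.34 in myoblast medium and at -0.36 in fibroblast medium. These omega-class differences lay inside the ranges of the control transcripts (-0.01 to 0.66 and -0.68 to 0.59). Gstp1, of the pi class, was at 0.14 in each conditioned medium. Gstz1, which acts in tyrosine breakdown, was at -0.17 and -0.49, and Gstk1, of the kappa class, at 0.00 and -0.14. Over the 20 genes with a Gsta, Gstk, Gstm, Gsto, Gstp, Gstt or Gstz prefix, the median difference was -0.04 in myoblast medium and -0.16 in fibroblast medium. Of these, 0 genes were at least 2-fold higher in either medium, and 1 and 4 were at least 2-fold lower.

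The 3 membrane-bound transferases diverged. Mgst2, which can also conjugate glutathione to leukotriene precursors, had values of -0.64 in control, 0.00 in myoblast medium and 0.38 in fibroblast medium. It was 1.56-fold higher in myoblast medium and 2.03-fold higher in fibroblast medium than in control. The difference in myoblast medium (0.64) lay inside the range of the control transcripts (-0.01 to 0.66). Mgst1, a microsomal transferase and peroxidase, went the other way at -0.16 and -0.93, and Mgst3 was at -0.21 and -0.37.

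Aldo-keto reductases reduce aldehydes and ketones, including sugars, steroids and lipid-derived aldehydes. Akr1c15 had the largest positive difference of the 65 genes. Its value was -2.06 in control, 0.46 in myoblast medium and 0.00 in fibroblast medium, so that both conditioned media lay far above control and close to each other. The difference from control was 2.52 in myoblast medium (5.73-fold) and 2.06 in fibroblast medium (4.16-fold). Akr1b8, a relative of aldose reductase, had values of -0.68, 0.99978 and 0.00 in control, myoblast medium and fibroblast medium, so that myoblast medium stood highest. It was 3.20-fold higher in myoblast medium and 1.60-fold higher in fibroblast medium than in control. The latter difference was 0.68, where the control transcripts ran from -0.68 to 0.59. It was thus no larger in size than the largest difference of a control transcript. Between the conditioned media it differed by 0.99978, just under the 2-fold line, and was not counted.

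The remaining aldo-keto reductases stayed below 2-fold in every comparison. Akr1c14, a hydroxysteroid dehydrogenase with 3 probe sets, was at 0.36 in myoblast medium, where all its probe sets were above 0, and at 0.04 in fibroblast medium, where they disagreed in sign (-0.21 to 0.18). Akr1c3 was at 0.27 and 0.15, and Akr1c1 at -0.28 and 0.00. Akr1c19 and Akr1e2 were lower in fibroblast medium alone, at -0.73 and -0.63 there against 0.18 and 0.11 in myoblast medium. The aldose reductase gene Akr1b1 was at -0.16 and -0.13, the aldehyde reductase gene Akr1a1 at 0.06 and 0.11, and the aflatoxin aldehyde reductase genes Akr7a2 and Akr7a3 at -0.12 and 0.02 in myoblast medium and at -0.14 and -0.46 in fibroblast medium. Of the 15 aldo-keto reductase genes, 9 (60.0%) had their highest value in myoblast medium, against 23.7% of all genes. That count takes differences of any size, such as 0.02 for Akr1b10 and for Akr7a3 in myoblast medium minus control. Of the 9, only Akr1c15 and Akr1b8 lay outside the range of the control transcripts in that comparison (-0.01 to 0.66). In the annotation, 7 of the 15 lie in 1 stretch that holds the Akr1c genes and Akr1e2.

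The carbonyl reductases, which act on quinones and other carbonyl compounds, stayed below 2-fold in every comparison. Cbr1 had values of 0.36 in control, 0.00 in myoblast medium and -0.28 in fibroblast medium. Cbr3, its neighbour and close relative, had the opposite order at -0.22, 0.00 and 0.23. The mitochondrial reductase gene Cbr4 was at -0.11 and -0.24 relative to control.

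The epoxide hydrolases split. Ephx1, the microsomal enzyme that acts on epoxides of foreign compounds, had values of -0.06 in control, 0.00 in myoblast medium and 1.28 in fibroblast medium, so that fibroblast medium alone stood high (2.54-fold above control, 2.44-fold above myoblast medium). Ephx2, the soluble enzyme that hydrolyses epoxides of arachidonic acid and is well known in the heart, had values of 0.39, 0.00 and -1.23, so that fibroblast medium alone stood low (3.08-fold below control, 2.34-fold below myoblast medium). In myoblast medium the difference from control was 0.06 for Ephx1 and -0.39 for Ephx2. The Ephx1 value rests on 1 probe set of a kind that can match several transcripts of a gene. Ephx4 was at -0.01 and 0.00.

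Among the cytochromes P450, Cyp1b1, an enzyme of tissues outside the liver that metabolises oestrogens, retinoids and arachidonic acid, was higher in both conditioned media. Its value was -1.15 in control, 0.00 in myoblast medium and 0.88 in fibroblast medium. It was 2.22-fold higher in myoblast medium and 4.08-fold higher in fibroblast medium than in control. Cyp1a1, the classical target of the aryl hydrocarbon receptor, was at -0.09 in both, and Cyp1a2, a mainly hepatic enzyme, was listed at 0. The steroid-producing genes lay between -0.37 (Cyp11a1 in fibroblast medium) and 0.03 (Cyp19a1 in myoblast medium) relative to control.

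Aldehyde dehydrogenases of the Aldh1a group make retinoic acid from retinaldehyde, and those of the Aldh3 group oxidise fatty and aromatic aldehydes. Aldh1a1 had values of 0.60 in control, -0.35 in myoblast medium and 0.00 in fibroblast medium, a difference from control of -0.95 and -0.60. Aldh1a2, a gene known in the embryonic epicardium, had values of -0.29, 0.00 and 0.55, a difference of 0.29 and 0.84, and Aldh1a3 was at -0.11 and 0.41. All 3 Aldh1a genes were lower in myoblast medium than in fibroblast medium, by 0.35 to 0.55 in size. Aldh3a2, the fatty aldehyde dehydrogenase gene, was higher by 0.64 and 0.57. Both differences lay inside the ranges of the control transcripts (-0.01 to 0.66 and -0.68 to 0.59). None of the 6 genes of the family reached 2-fold.

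The 8 glucuronosyltransferase genes of the Ugt2 group, which act mostly in liver and olfactory tissue, differed from control by -0.12 to 0.08 in myoblast medium and by -0.12 to 0.03 in fibroblast medium. Hepatocyte markers (Alb, Apoa1, Ttr, Afp, Serpina1, Cyp3a23-3a1 and Tat) had 0 of 7 genes past 2-fold in any comparison, against 9.2% of all genes, with 3 listed at 0. So short a list cannot be told apart from that share. Ttr came nearest, at 0.42 in myoblast medium and -0.48 in fibroblast medium relative to control, and 0.91 in myoblast minus fibroblast medium.

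The differences nearest to the 2-fold line were those of Mgst2 just past it in fibroblast medium (1.02) and, just short of it, Akr1b8 between the conditioned media (0.99978), Aldh1a1 in myoblast medium (-0.95), Mgst1 in fibroblast medium (-0.93) and Akr1c19 between the conditioned media (0.91). The 55 genes under 2-fold in every comparison ranged from -0.95 to 0.70 in myoblast medium minus control and from -0.93 to 0.84 in fibroblast medium minus control.

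**Figure D3:**
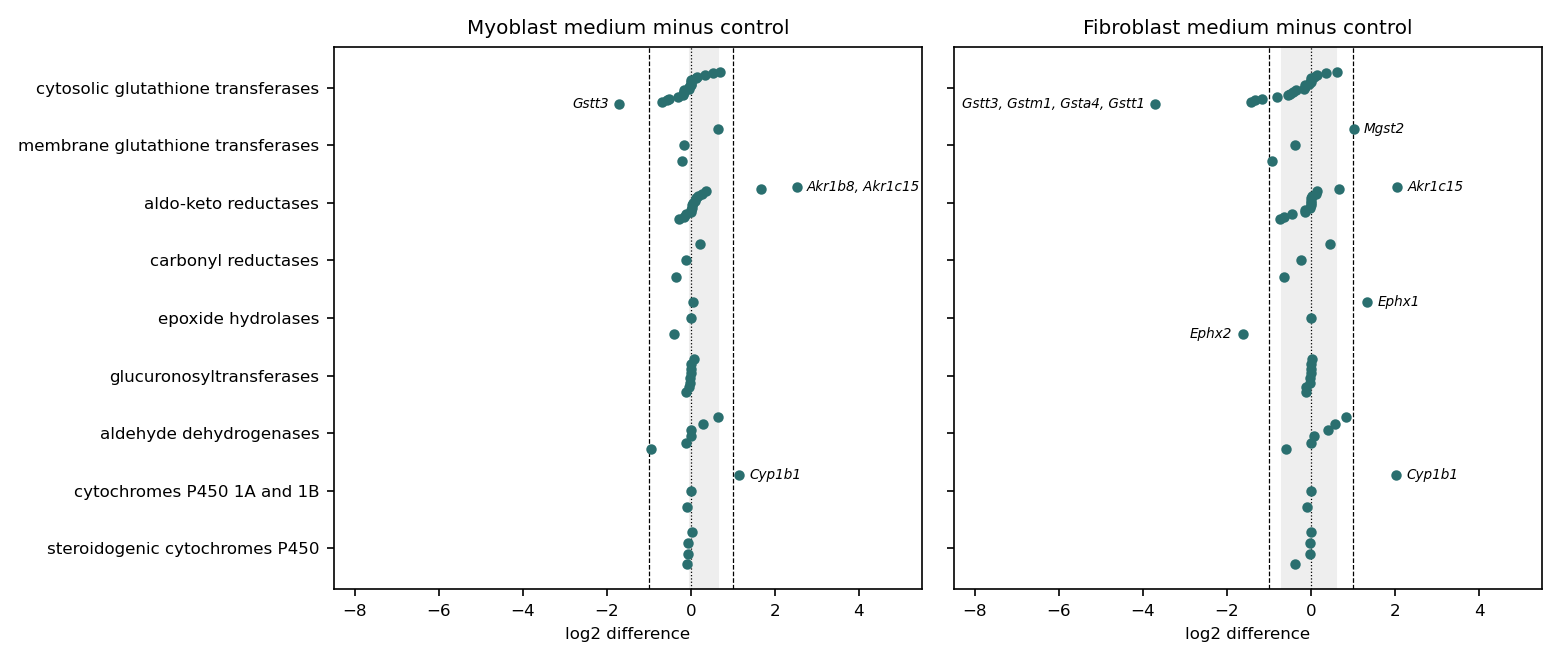
Log2 difference from control of all 65 detoxifying genes in myoblast medium (left) and fibroblast medium (right), by enzyme family, with 1 point per gene. Dashed lines mark 2-fold, the grey band runs from the lowest to the highest control transcript (-0.01 to 0.66 and -0.68 to 0.59), and genes past 2-fold are named in order of their value. No glucuronosyltransferase, carbonyl reductase, aldehyde dehydrogenase or steroid-producing cytochrome P450 reached a dashed line in either panel.

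Markers of other cells moved in the same arrays, which matters for genes that endothelial cells, macrophages or fibroblasts also transcribe. In bulk RNA, fewer cells of a type and less RNA per cell cannot be told apart. Of all genes, 4.26% were at least 2-fold higher and 2.6% lower in fibroblast medium than in control. In myoblast medium these shares were 1.35% and 0.844%. In fibroblast medium minus control, of 11 measured endothelial markers 9 lay at least 2-fold lower and 0 higher (median -2.83, from -5.65 for Emcn to -0.50 for Vwf). Of 12 macrophage markers 10 were at least 2-fold higher (median 2.11, up to 5.41 for Adgre1), and of 11 cardiomyocyte markers 5 were at least 2-fold lower (median -0.97). In myoblast medium minus control these counts were 4 lower endothelial markers (median -0.84), 1 higher macrophage marker (Fcgr2b; median -0.49), and 1 higher and 1 lower cardiomyocyte marker (Myh7 and Mb; median -0.29). The 10 fibroblast markers went both ways, with medians of -0.13 and -0.07. Pdgfra (-1.42 and -1.48) and Fbln1 (-1.03 and -2.07) were at least 2-fold lower in both media, and Thy1 was higher in fibroblast medium (1.69). Smooth muscle and pericyte markers (7 measured) had 3 higher and 1 lower in myoblast medium and 3 higher in fibroblast medium, erythroid markers (4 measured) had 1 lower in each, and skeletal myoblast markers (6 measured) had 0 past 2-fold. The order of control above myoblast above fibroblast medium that Gstt3, Gstt1, Gstm1, Gsta4 and Ephx2 had was not particular to 1 list. It was found in 10 of 11 endothelial, 6 of 11 cardiomyocyte, 3 of 10 fibroblast and 3 of 4 erythroid markers, for example Pecam1 at 1.23, 0.00 and -1.60 and Myl7 at 0.41, 0.00 and -1.89, and in 0 of 12 macrophage and 0 of 7 smooth muscle and pericyte markers. None of these marker genes was listed at 0 on all arrays, and a summed level cannot be formed from centred values. The part of these cell types in the differences above was not tested.

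Regulators of the pathway and enzymes outside the prefixes were taken from lists set by function, also with earlier results of these data known. Of all genes, 1.35% were at least 2-fold higher and 0.844% lower in myoblast medium than in control. In fibroblast medium these shares were 4.26% and 2.6%. In lists of this size, here and below, a count of 0 or 1 cannot be told apart from these shares. Among 14 measured xenobiotic sensors and partners, 0 passed 2-fold in myoblast medium and 2 were higher in fibroblast medium, the small Maf genes Maff (1.53) and Mafk (1.46), whose products pair with Nrf2. Nfe2l2, the gene of Nrf2, was at 0.55 and 0.36 in myoblast and fibroblast medium, and Keap1, its inhibitor, at 0.07 and 0.02. Ahr, the receptor gene, was at 0.12 and 0.49, and its targets Tiparp at 0.41 and 0.64 and Ahrr at 0.39 and -0.44.

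Of 20 other Nrf2 target enzymes and transporters, 5 were at least 2-fold higher in myoblast medium and 1 lower, with a median of 0.37. They were the cystine transporter gene Slc7a11 (7.98-fold), the quinone reductase gene Nqo1 (4.45-fold), Srxn1 (2.21-fold), Gclc (2.18-fold) and the haem oxygenase gene Hmox1 (2.01-fold), against the export pump Abcc3 (2.30-fold lower). In fibroblast medium 2 were at least 2-fold higher (Me1 at 1.21 and Ugdh, which makes the sugar donor of glucuronidation, at 1.14) and Abcc3 was lower (-1.82), with a median of 0.43.

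Of 19 glutathione-handling genes, 3 were at least 2-fold higher in myoblast medium and 2 in fibroblast medium, and 0 were 2-fold lower in either. Cth, which makes cysteine, was 17.8-fold and 7.79-fold higher. Chac1, which breaks glutathione down, and Ggct were at 2.34 and 1.75 in myoblast medium, against 0.36 and -0.06 in fibroblast medium. Gpx3, a secreted glutathione peroxidase, was at 1.53 in fibroblast medium. Of 34 other conjugating, reducing and oxidising enzymes, 0 passed 2-fold in myoblast medium, and in fibroblast medium 1 was higher, the monoamine oxidase gene Maoa (1.57), and 3 were lower, Aldh6a1 (-1.20), Nqo2 (-1.12) and Aldh1b1 (-1.02). Of 19 retinoid pathway genes, 0 passed 2-fold in myoblast medium. In fibroblast medium Cyp26b1, which degrades retinoic acid, was higher (1.11), and Dhrs3 (-1.40), Rxrg (-1.39) and Rarb (-1.30) were lower. Epicardial and mesothelial markers, set beside Aldh1a2, diverged in fibroblast medium minus control, with Msln at 1.72, Upk1b at 1.16, Wt1 at -0.03 and Krt19 at -1.53.

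**Figure D4:**
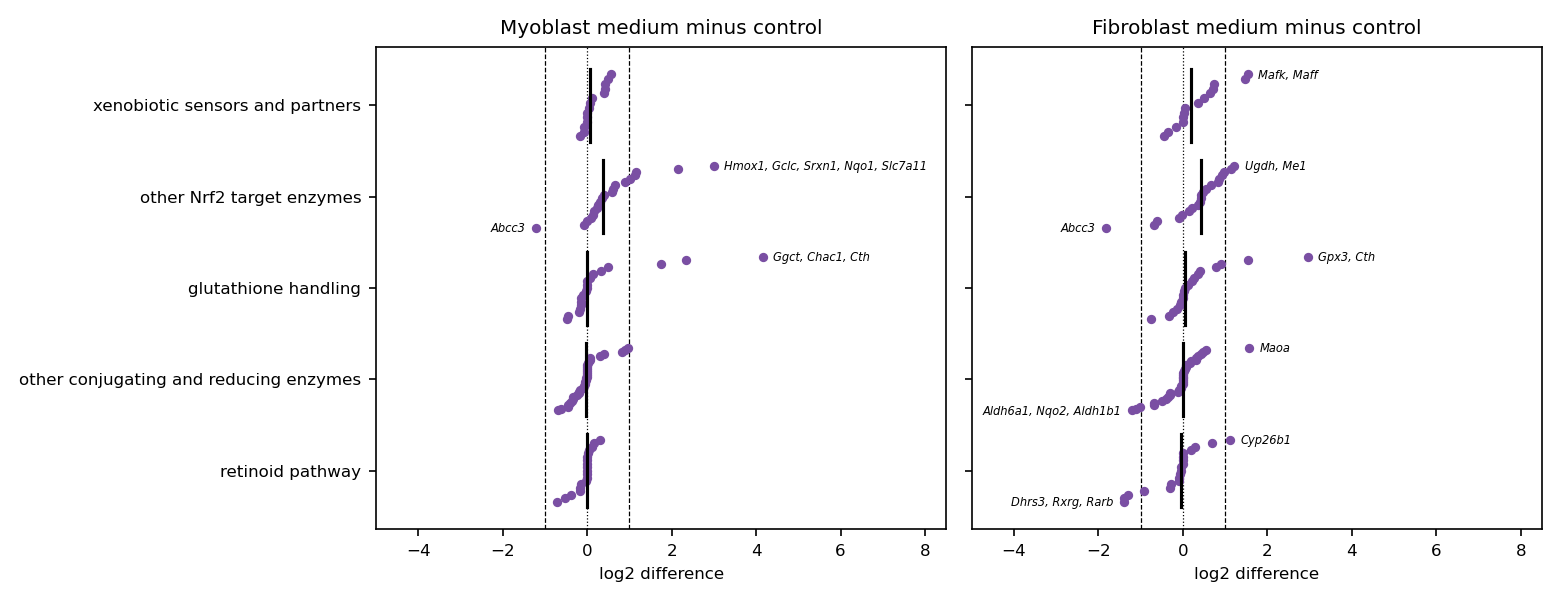
Log2 difference from control of the genes of 5 lists related to detoxification, in myoblast medium (left) and fibroblast medium (right), with 1 point per gene and a black bar at the median of each list. Dashed lines mark 2-fold, and genes past it are named in order of their value. In myoblast medium the genes past 2-fold lay in the Nrf2 target and glutathione lists, and in fibroblast medium each list held at least 2.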

How the data were processed

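RNA from 3 cultures was hybridised to 1 Affymetrix 3' expression array each, with biotin labelling per the labels' protocols. RMA, which corrects background, equalises arrays and summarises probe sets, is named in the submitters' processing notes, without a version or settings. The deposited log2 values appear centred on each probe set's median over the arrays. Of 31099 probe sets, 17117 had 2 values, always of opposite sign, 8002 had 1, 5980 had 0 and none had 3. No value was exactly 0. Centring alone would leave 1 blank per probe set unless arrays tied, and why other probe sets had more blanks is not known. Blanks were read as 0, which for the further blanks is an assumption. That the scale is log2 rests on the use of RMA.

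The platform annotation gave 20832 probe sets 1 symbol, 436 several, and left 9831 unnamed here. Probe sets with 1 symbol were averaged per gene. Updating symbols through the RefSeq table of GRCr8 changed none of the 65 gene names. Differences were taken for each pair of media and counted at 2-fold, a log2 difference of 1. With 1 array per medium no test is possible. The counting step was tested on simulated data. The genes described and the related lists were chosen with earlier results of these data known. The rule for named genes asked for full values of genes past 2-fold in any comparison and ranges for the others. Values of other genes of the 65 are printed beyond that rule and were chosen after they were seen. Genes count as neighbours with fewer than 5 other protein-coding genes between them. Promoter windows are from RefSeq, GRCr8. Alternatives tried were the median or widest-range probe set, probe sets in place of genes, leaving out probe sets whose suffix marks a match to several transcripts or genes (_a_at, _s_at, _x_at), only probe sets with 2 values, array centring, thresholds of 1.5-fold and 3-fold, and updated symbols. Python 3.11.15, NumPy 2.4.6, pandas 2.3.3 and Matplotlib 3.10.9 were used.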

Additional observations from a re-analysis of the deposited data

Results flagged for a closer look

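The genes of the Ugt1 locus, whose transcripts share their last exons, were measured only by probe sets that carry several symbols and so stood outside the comparisons above. Both of these probe sets, each annotated with 8 Ugt1a genes, differed in fibroblast medium minus control by more than any control transcript. The first was at -0.28 in control, 0.00 in myoblast medium and 0.68 in fibroblast medium, a difference of 0.97 (1.96-fold higher). The second was at -0.55, 0.00 and 0.40, a difference of 0.95 (1.94-fold higher). Which of the Ugt1a genes gave the signal cannot be read from them.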

How the results depend on the processing

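With 1 array per medium no replicate could be left out, and no paired analysis was possible because each group has 1 sample. Taking the median or the widest-range probe set of a gene, centring the arrays or using only probe sets with 2 values (44 genes) kept all 16 differences past 2-fold. Leaving out probe sets whose suffix marks a match to several transcripts or genes removed Ephx1, so that 0 genes instead of 1 were at least 2-fold lower in myoblast than in fibroblast medium and 3 instead of 4 at least 2-fold higher in fibroblast medium than in control. No difference past 2-fold reversed in sign under these 5 settings. Counting probe sets or updating symbols left every count within 1.5 times. At 1.5-fold the counts of genes higher and lower were 6 and 3 in myoblast medium minus control, 7 and 11 in fibroblast medium minus control, and 9 and 2 in myoblast minus fibroblast medium. At 3-fold they were 2 and 2 in fibroblast medium minus control and 1 and 0 in myoblast minus fibroblast medium. The shares of all genes past these thresholds stand beside the same counts in the results. Centred values hide how far each signal stood above background.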
